A study of Mus musculus with 15 samples.

Results

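The genes described here are 37 genes of the unfolded protein response and the chaperones of the endoplasmic reticulum (ER), measured by RNA sequencing of mouse colon. They were chosen by symbol, as those with a row in both the deposited count table and the deposited log2 table. All 37 were found among the 17531 genes present in both tables, and all 37 passed the filter on low counts that left 17477 genes for testing. The members were grouped by role into 5 genes of stress sensing (4 sensors and the factor Xbp1), 12 targets mainly assigned to ATF6, 10 mainly assigned to XBP1, 7 of the PERK branch, and 3 folding genes without a branch. Several targets answer to both ATF6 and XBP1, so that the division between these branches is a convention.

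Protein folding stress in the ER is sensed by 3 membrane proteins. ATF6 is cut in the Golgi and its released part enters the nucleus. IRE1, encoded by Ern1 and, in mucus-making epithelium, Ern2, splices the Xbp1 transcript so that an active factor can be made. PERK, encoded by Eif2ak3, phosphorylates eIF2alpha, which slows translation in general but favours ATF4, and other eIF2alpha kinases lead to ATF4 as well. Both goblet cells and plasma cells secrete large amounts of protein and are known to depend on this response. Gene counts do not separate spliced from unspliced Xbp1 and do not show cleavage or phosphorylation, so the sensors' activity was not measured here.

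The libraries came from colon of 3 Tert genotypes, 15 in all. For each genotype 2 came from untreated colon and 3 from colon exposed to dextran sulfate sodium (DSS). Tert encodes the reverse transcriptase of telomerase. WT libraries carried TERT+/+, KO libraries TERT-/-, and VAA libraries a Tert allele whose product is enzymatically inactive (TERTVAA) from a knock-in. Strain, sex and the zygosity of the VAA allele are unstated in the sources used here. DSS is a polymer that injures the colon lining. It was given at 3% in drinking water for 4 days, 4 days of plain water followed, and colon was taken on day 8 from mice of 8 to 12 weeks. The samples are whole tissue with epithelium, immune cells, muscle and nerves, and pooling of animals is not stated.

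Library totals ran from 10561247 to 17541584 counts. Tert itself had 23 to 40 counts in WT libraries, 7 to 29 in VAA and 0 to 1 in KO. High Ddx3y counts marked WT untreated replicate 2 and KO untreated replicate 2 as male. VAA DSS replicate 3 stood apart: it had the smallest total, the highest value on the second principal component (102, against 20.1 for the next), and the highest summed levels of endothelial markers (228 CPM, against 49.2 to 95.2 in the other DSS libraries) and of neuron and glia markers (116 CPM, against 5.86 to 27.1). CPM is the usual count normalised to library depth, here after scaling each library by trimmed mean of M values. Results that rest on this library are given with and without it. Because the labels do not state that replicates are separate mice, p-values measure the spread between these libraries.

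Promoter sequence was compared with the branches first. Known response elements were searched as exact letters on both strands in RefSeq promoters of build GRCm38.p6, from 250 bases before to 50 after the gene start. The elements were the ER stress response element ERSE (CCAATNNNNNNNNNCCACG), which binds ATF6 and XBP1 with NF-Y; ERSE-II (ATTGGNCCACG); the core of the unfolded protein response element (TGACGTGG); and the C/EBP-ATF response element CARE (TGATGNAA), which ATF4 binds. A promoter was found for 31 of the 37 members. Atf6, Ern2, Hyou1, Manf, Derl1 and Sec61a1 had none in the table. The 10 sequences shown are examples of ERSE in genes of the ATF6 and XBP1 branches, of CARE in the PERK branch, and of ERSE-II and CARE in Herpud1. Capitals mark the matched element; each line is read 5′ to 3′ on the strand named.
Hspa5 ERSE (chr2:34772020-34772048, + strand): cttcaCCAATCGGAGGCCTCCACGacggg
Creld2 ERSE (chr15:88819505-88819553, - strand): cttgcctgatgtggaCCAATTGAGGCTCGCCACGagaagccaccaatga
Derl3 ERSE (chr10:75893227-75893275, - strand): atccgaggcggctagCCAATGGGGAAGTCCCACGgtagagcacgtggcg
Dnajc3 ERSE (chr14:118937812-118937860, + strand): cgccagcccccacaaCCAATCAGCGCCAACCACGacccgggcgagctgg
Syvn1 ERSE (chr19:6046517-6046565, + strand): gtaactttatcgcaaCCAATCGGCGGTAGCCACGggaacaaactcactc
Herpud1 ERSE-II (chr8:94386362-94386402, + strand): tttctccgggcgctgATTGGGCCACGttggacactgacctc
Herpud1 CARE (chr8:94386302-94386339, - strand): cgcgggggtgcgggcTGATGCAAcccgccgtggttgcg
Chac1 CARE (chr2:119351034-119351071, - strand): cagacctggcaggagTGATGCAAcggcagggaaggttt
Asns CARE (chr6:7693214-7693243, - strand): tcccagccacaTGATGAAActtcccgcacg
Atf3 CARE (chr1:191183421-191183458, + strand): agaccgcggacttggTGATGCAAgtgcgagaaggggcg

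ERSE was present in 9 of the 31 members with a promoter, against 0.119% of all 32851 promoters. It lay in 6 of 10 ATF6 targets (Hspa5, Hsp90b1 at 2 places, Calr, Pdia6, Creld2 and Derl3), in 2 of 8 XBP1 targets (Dnajc3 and Syvn1) and in Canx. None of the 7 PERK branch promoters and none of the 3 promoters found for the sensing group held it. ERSE-II lay in Herpud1 and Dnajb11, against 0.0365% of all promoters. CARE was found in 4 of 7 PERK branch genes (Atf3, Trib3, Chac1 and Asns) and in Herpud1, against 3.97% of all promoters. The core of the unfolded protein response element was in no member promoter and in 0.676% of all. These are matches of letters and not evidence of binding, and no overlap between matches was found in Herpud1, the only member with 2 kinds. Both the elements and the branch lists came from prior knowledge, so the matches are no independent test of the grouping.

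**Figure D1:**
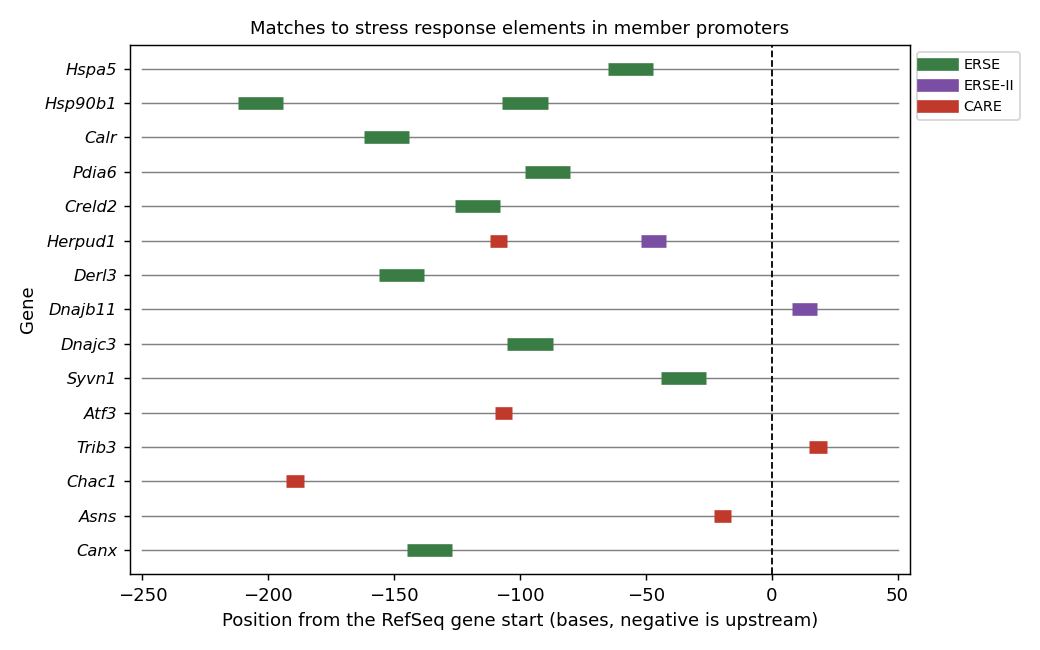
Positions of exact matches to ERSE, ERSE-II and CARE (coloured bars) in the promoters of members with a match, in bases from the RefSeq gene start (dashed line, negative is upstream). ERSE bars lie between 212 and 26 bases upstream; only the Dnajb11 and Trib3 matches lie after the start.

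In WT colon, most ER chaperones and the ATF4 targets Asns and Chac1 were higher after DSS, while none of the 4 sensors was called. Of the 37 members, 21 rose and 0 fell (edgeR's quasi-likelihood test, Benjamini-Hochberg adjusted p under 0.05), against 26.6% of all genes tested that were called, 14.1% that rose and 12.5% that fell. At an unadjusted p under 0.05 there were 29 members, against 38.9% of all genes. The median log2 fold change was 0.88 over the members and -0.01 over all genes. By role, 1 of 5 sensing genes (Xbp1), 9 of 12 ATF6 targets, 5 of 10 XBP1 targets, 3 of 7 PERK branch genes and all 3 folding genes without a branch rose. Their medians were 0.02, 1.18, 0.51, 0.93 and 0.88 on the log2 scale. This count rests on the untreated WT pair: leaving out WT untreated replicate 1 or replicate 2 left 9 members called, and 6 were called without both male libraries. The calls that held in all 24 alternatives were those of Calr, Manf, Sec61a1, Sec61b, Asns and P4hb.

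**Figure D2:**
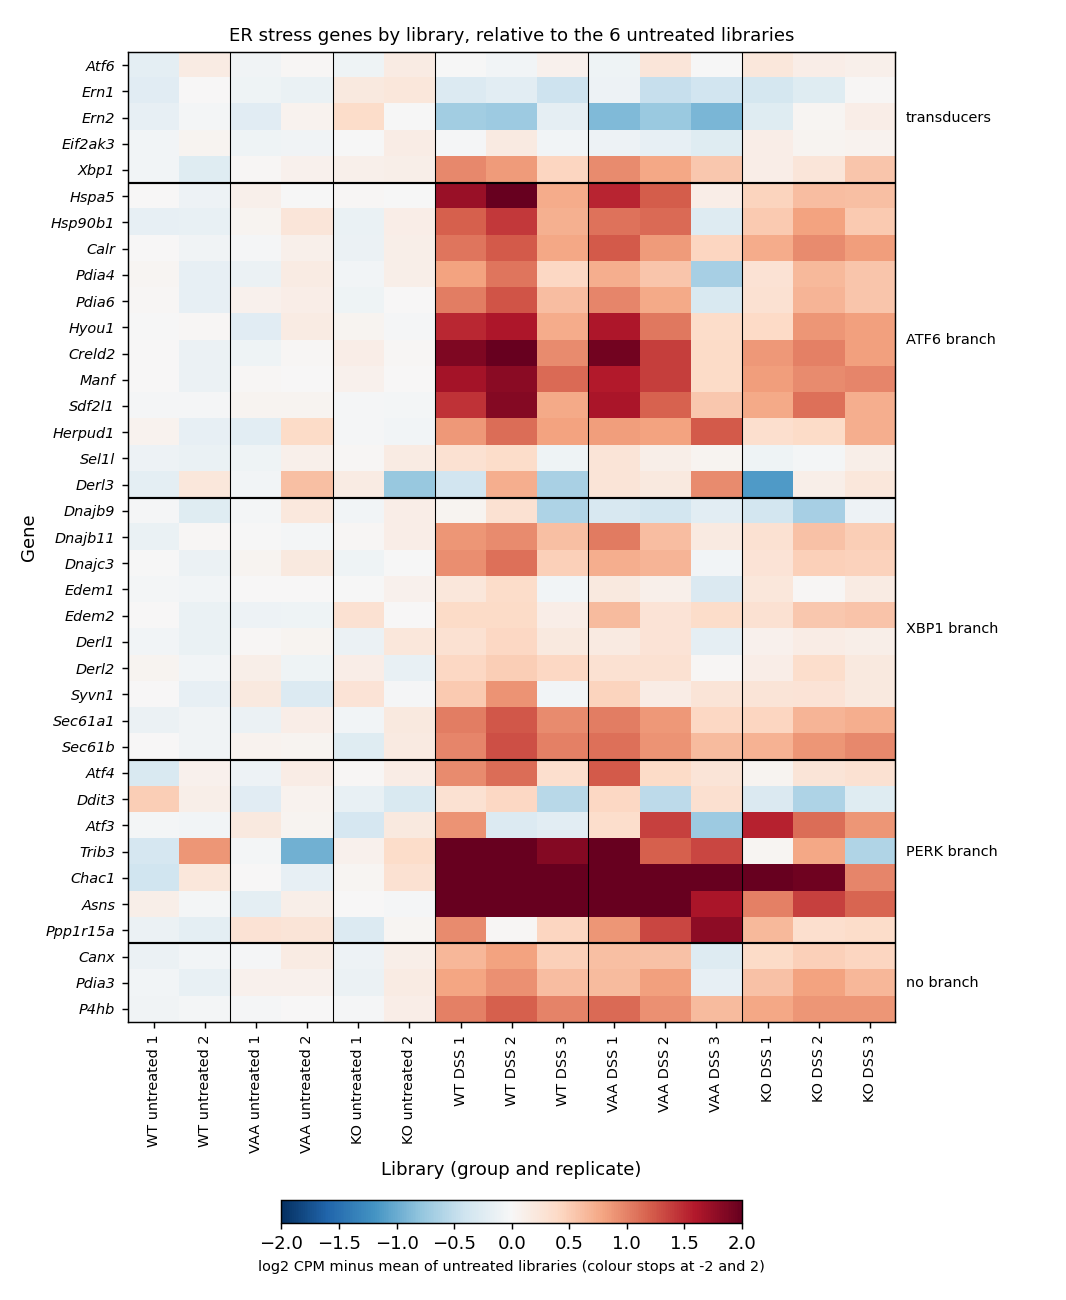
Log2 CPM of each of the 37 genes (rows, by role) in each of the 15 libraries (columns), minus the mean of the 6 untreated libraries; red is higher, blue lower, and the colour stops at -2 and 2. Most chaperone rows and the Asns and Chac1 rows are red in WT DSS and VAA DSS libraries, paler in WT DSS replicate 3, VAA DSS replicate 3 and the KO DSS libraries.

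Among the sensors, Atf6 and Eif2ak3 stayed within a narrow range. Atf6 (chr1:170704674-170867771, - strand, GRCm38) read 93.9 and 120 CPM in the untreated WT libraries and 107, 104 and 114 under DSS. Eif2ak3, the PERK gene, read 56.1 and 60.7 CPM untreated and 56.9, 66 and 56.4 under DSS. Both sets overlap. Their log2 fold changes in WT were 0.02 ± 0.13 (SE) and 0.03 ± 0.11.

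Xbp1 (chr11:5520659-5525893, + strand), the transcript that IRE1 splices, rose. It read 128 and 113 CPM in the untreated WT libraries against 260, 242 and 180 under DSS. In VAA it read 136 and 141 CPM against 257, 227 and 194, and in KO 143 and 144 against 147, 158 and 196. The DSS libraries lay above the untreated ones in all 3 genotypes, by the narrowest gap in KO. The log2 fold change was 0.91 ± 0.17 in WT and 0.71 ± 0.17 in VAA (edgeR, Benjamini-Hochberg adjusted p = 0.0023 and 0.011), and 0.22 ± 0.17 in KO, which was not called (edgeR, adjusted p = 0.44).

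Ern2, the IRE1 of mucus-making epithelium, went the other way. It read 86 and 93.6 CPM in untreated WT and 59.9, 57.9 and 85.2 under DSS, 82.7 and 101 against 52.4, 57.6 and 50.9 in VAA, and 125 and 95.7 against 81.1, 99.3 and 106 in KO. Untreated and DSS libraries did not overlap in WT and VAA and did in KO. It fell in VAA, by 0.78 ± 0.18 on the log2 scale (edgeR, adjusted p = 0.0082), and over the average of the genotypes by 0.46 ± 0.1 (edgeR, adjusted p = 0.003). Ern1 fell by 0.26 ± 0.08 over that average (edgeR, adjusted p = 0.018) and was called in no single genotype. The Ern1 call was lost without WT untreated replicate 2, without both male libraries and with sex as a covariate.

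Goblet cell markers were set beside Ern2. The summed level of 10 goblet markers was 13100 to 14300 CPM in untreated WT and 5950 to 8460 under DSS, 16200 to 16500 against 5330 to 7110 in VAA, and 20600 to 20700 against 12600 to 15300 in KO. The markers did not all follow the sum: 3 rose and 5 fell in WT, 1 rose and 6 fell in VAA, and 2 rose and 3 fell in KO. Of all genes tested, 14.1% rose and 12.5% fell in WT, 10.9% and 9.54% in VAA, and 5.59% and 5.06% in KO. Agr2, an ER disulfide isomerase on that list, rose by 1.13 ± 0.21 in WT and 0.81 ± 0.21 in KO on the log2 scale. In KO the sum fell without overlap while the Ern2 groups overlapped. The part of these markers in the Ern2 values was not tested. In whole tissue, fewer cells of a type and less RNA per cell cannot be told apart. For 12 plasma cell markers, of which Xbp1 is 1, the sum was 494 to 644 CPM in untreated WT and 503 to 651 under DSS. That sum contains the rise of Xbp1 itself, from a mean of 120 to 227 CPM in WT. It therefore does not show how the other markers moved, and their part in the Xbp1 values was not tested. In VAA that sum was 781 to 990 against 539 to 590, and in KO 1060 to 1170 against 490 to 600. Pancreatic acinar cells, another secretory type, left little trace: over all 15 libraries Cpa1 had 5 counts, Ctrb1 9, Prss2 14 and Amy2b 0. Smooth muscle marker sums fell in each genotype. In WT they were 6140 to 7060 CPM untreated against 681 to 1070 under DSS. In VAA they were 4540 to 5870 against 829 to 2700, and in KO 3980 to 4510 against 705 to 2070. Colonocyte sums fell as well, in WT from 4150 to 4400 CPM to between 1730 and 2210. Pan-epithelial sums overlapped in WT and VAA and were higher under DSS in KO. The part of these cell types in the DSS changes was not tested.

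Chaperones and cochaperones of the ATF6 group gave the broadest rise. Hspa5 (chr2:34771970-34777547, + strand), which encodes BiP, the main Hsp70 of the ER lumen and the holder of the sensors in their resting state, read 295 and 273 CPM in untreated WT. Under DSS it read 972, 1190 and 490. All 3 DSS libraries were higher than both untreated ones, and replicate 3 was well below the other pair. The change was 3.11-fold (log2 1.64 ± 0.37; edgeR, adjusted p = 0.0063). The call was lost without WT untreated replicate 1, WT untreated replicate 2 or both male libraries (range of the adjusted p over the alternatives 3e-05 to 0.082). In VAA, Hspa5 read 312 and 290 CPM untreated against 842, 676 and 322, a log2 change of 1.03 ± 0.36 that missed the threshold (edgeR, adjusted p = 0.06).

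Manf and Creld2, small secreted proteins of the ER that bind chaperones, behaved alike in WT. Manf (chr9:106838312-106891979, - strand) read 38.9 and 35.8 CPM untreated and 124, 137 and 86.1 under DSS. Its log2 change was 1.63 ± 0.28 (edgeR, adjusted p = 0.0013) and it stayed called in WT in all 24 alternatives. Creld2 (chr15:88819646-88826683, + strand), whose promoter holds ERSE, read 17.4 and 16.1 CPM untreated and 63.9, 78.7 and 33.7 under DSS. This was the highest fitted change of the ATF6 group, 3.5-fold (log2 1.81 ± 0.39; edgeR, adjusted p = 0.0047). In VAA, Manf rose by 1.19 ± 0.28 and Creld2 by 1.41 ± 0.38 on the log2 scale (edgeR, adjusted p = 0.0084 and 0.019), from 39.9 and 39.2 to 118, 102 and 51 CPM and from 16.4 and 17.8 to 66.9, 45.7 and 22.9 CPM.

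Calr, the calcium-binding lectin chaperone calreticulin, was the ATF6 group member called in all 3 genotypes. It read 371 and 354 CPM untreated against 783, 866 and 638 in WT, 363 and 400 against 866, 669 and 503 in VAA, and 345 and 405 against 623, 721 and 667 in KO. No DSS library overlapped the untreated ones. The log2 changes were 1.07 ± 0.2, 0.83 ± 0.2 and 0.84 ± 0.2 (edgeR, adjusted p = 0.002, 0.0091 and 0.019). Herpud1, a membrane protein of ER-associated degradation, rose by 0.98 ± 0.19 in WT and 0.86 ± 0.19 in VAA, from 79.4 and 67.7 to 138, 164 and 133 CPM in WT and from 65.3 and 98.4 to 134, 132 and 178 CPM in VAA. Unlike the chaperones named so far, it was highest in VAA DSS replicate 3.

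Other ATF6 targets that rose in WT were Hsp90b1 (the ER Hsp90), Pdia6 (a disulfide isomerase), Hyou1 (a nucleotide exchange factor for BiP) and Sdf2l1 (a BiP partner). Their log2 changes ran from 1.05 to 1.43. Pdia4 did not reach the threshold (0.84 ± 0.31). Sel1l and Derl3, which like Herpud1 serve degradation, did not either. Sel1l, the scaffold of the Hrd1 ubiquitin ligase, changed by 0.32 ± 0.14, and Derl3 by -0.02 ± 0.56. Derl3 lay at 0.465 to 2.4 CPM in all libraries, and its promoter holds an ERSE.

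In the XBP1 group, 5 of 10 genes rose in WT and 4 in VAA. Both translocon subunits were among them in each. Sec61a1, the channel itself, read 169 and 174 CPM in untreated WT against 372, 431 and 353 (log2 1.17 ± 0.18; edgeR, adjusted p = 0.00053). In VAA it rose from 169 and 201 to 372, 331 and 245 CPM (log2 0.77 ± 0.17). Sec61b read 31.1 and 29.4 CPM against 61, 75.8 and 62.3 in WT (log2 1.13 ± 0.17; edgeR, adjusted p = 0.00049) and was also called in VAA (0.83 ± 0.17) and KO (0.87 ± 0.17). In KO it read 26.1 and 35.1 CPM untreated against 50.5, 57.3 and 60.2.

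The BiP cochaperones Dnajb11 and Dnajc3 rose in WT, by 0.87 ± 0.2 and 0.93 ± 0.22. Dnajb11 read 59.9 and 66.9 CPM in untreated WT against 121, 127 and 99.8, and 65.4 and 64.2 against 135, 101 and 74.7 in VAA, where it was also called (log2 0.68 ± 0.2; edgeR, adjusted p = 0.027). Dnajc3 read 118 and 109 CPM against 228, 256 and 166 in WT, and in VAA its change of 0.38 ± 0.22 was not called. It was called there without VAA DSS replicate 3 (0.59 ± 0.16). In contrast, Dnajb9, a cochaperone that restrains IRE1 and a common marker of XBP1 activity, read 30.5 and 26.1 CPM untreated and 31.9, 38.1 and 20.2 under DSS in WT. Those values overlap, and the log2 change was 0.08 ± 0.23 in WT, -0.39 ± 0.23 in VAA and -0.41 ± 0.23 in KO, none of them called.

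Of the 5 genes of ER-associated degradation in the XBP1 group, 1 rose in WT and 1 in VAA. Of all genes tested, 14.1% and 10.9% rose, and so small a group cannot be told from these shares. Edem1, Derl1 and Syvn1 (the Hrd1 ligase) were called in none of the 3 genotypes, with log2 changes in WT of 0.23 ± 0.15, 0.4 ± 0.14 and 0.58 ± 0.23. Derl2 rose in WT (0.44 ± 0.13) and Edem2, a mannosidase-like protein, in VAA (0.52 ± 0.15). Over the average of the genotypes both rose, by 0.3 and 0.4. The Derl2 call in WT was lost in 8 of 24 alternatives, upper quartile scaling, limma and sex as a covariate among them (highest adjusted p 0.18; edgeR for all but limma). The Edem2 call in VAA was lost in 4 of 24, without either untreated VAA library, without VAA DSS replicate 1 and when only the groups compared were fitted. Edem2 read 28.7 and 29 CPM in untreated VAA against 47.6, 37.3 and 39.6. Syvn1, with an ERSE 44 bases upstream of its start, read 49 and 43.8 CPM in untreated WT against 70.5, 91.5 and 46.8, so that the groups overlapped. Syvn1 was called in WT by DESeq2 and without WT DSS replicate 3 (adjusted p = 0.048 by DESeq2 and 0.0087 by edgeR).

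The folding genes without a branch rose with the chaperones. P4hb, a disulfide isomerase, read 318 and 325 CPM against 669, 771 and 664 in WT, 330 and 338 against 738, 632 and 523 in VAA, and 331 and 368 against 576, 621 and 618 in KO. It was called in each (log2 1.13 ± 0.14, 0.92 ± 0.14 and 0.79 ± 0.14; edgeR, adjusted p = 0.00016, 0.00053 and 0.0042). Pdia3, which works with the lectin chaperones, read 341 and 319 CPM against 613, 668 and 546 in WT (log2 0.88 ± 0.22). Canx, the membrane lectin chaperone calnexin, read 381 and 396 CPM against 648, 712 and 573 (0.73 ± 0.21). Neither was called in VAA or KO. Both were called without VAA DSS replicate 3 in VAA, Pdia3 at 0.65 ± 0.13 and Canx at 0.52 ± 0.13, and in KO, at 0.66 ± 0.12 and 0.42 ± 0.12.

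Within the PERK branch the enzyme genes Asns and Chac1 rose in WT and VAA, and Ddit3, linked to cell death, was not called. Asns (chr6:7675169-7693254, - strand), asparagine synthetase, read 14.3 and 12.8 CPM in untreated WT and 81.1, 103 and 64.8 under DSS. In VAA it read 11.5 and 14.4 against 95.8, 72.6 and 41.2, and in KO 13.3 and 13.1 against 26.5, 34.2 and 29.6. Every DSS library lay above every untreated one, by the narrowest gap in KO. The log2 changes were 2.61 ± 0.31, 2.44 ± 0.31 and 1.2 ± 0.3 (edgeR, adjusted p = 0.00011, 0.00014 and 0.024). The WT and VAA calls held in all 24 alternatives and the KO call in 18.

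Chac1 (chr2:119351229-119354381, + strand), a glutathione-degrading enzyme, had the largest fitted change of the members in WT. It read 0.342 and 0.605 CPM untreated against 21.6, 30.6 and 2.71 in WT, 0.501 and 0.426 against 43.8, 2.95 and 5.47 in VAA, and 0.517 and 0.642 against 3.64, 2.32 and 1.11 in KO. The level under DSS differed widely between replicates of WT and of VAA. Untreated libraries had only 5 to 9 counts of Chac1, so the size of the fold is imprecise. The log2 change was 5.24 ± 1.37 in WT and 5.21 ± 1.39 in VAA (edgeR, adjusted p = 0.014 and 0.018); in KO it was 2.01 ± 1.35 (edgeR, adjusted p = 0.37). Without VAA DSS replicate 1 the VAA value was 3.13 and no longer called (edgeR, adjusted p = 0.055, with a range of 0.00014 to 0.13 over the alternatives).

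Trib3, a pseudokinase that restrains ATF4, was even more uneven. It read 0.205 and 0.673 CPM untreated against 6.56, 12.5 and 1.42 in WT, 0.286 and 0.0851 against 20, 0.867 and 0.96 in VAA, and 0.323 and 0.428 against 0.31, 0.614 and 0.149 in KO. In VAA, 1 library carried nearly all of the signal, with 332 counts against 15 and 10 in the others, and in KO the groups overlapped. The untreated VAA libraries had 4 and 1 counts, so that the fitted fold depends on the prior count. The log2 change was 3.92 ± 1.42 in WT, which was not called (edgeR, adjusted p = 0.057), and 5.19 ± 1.63 in VAA, which was (edgeR, adjusted p = 0.038). Without VAA DSS replicate 1 the VAA value was 2.19 (edgeR, adjusted p = 0.22, with a range of 0.0024 to 0.22 over the alternatives). The VAA call held in 15 of the 24 alternatives.

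Atf4, the factor whose translation the branch favours, rose in WT from 57 and 74.9 to 135, 153 and 89.3 CPM (log2 0.93 ± 0.28; edgeR, adjusted p = 0.025). That call was lost without either untreated WT library, WT DSS replicate 1, WT DSS replicate 2 or both male libraries (edgeR, adjusted p up to 0.21). Ppp1r15a, the phosphatase subunit that restores translation, rose in VAA from 10.2 and 9.87 to 15.5, 21.3 and 29 CPM (log2 1.12 ± 0.29; edgeR, adjusted p = 0.014). In WT it read 7.65 and 7.26 CPM against 16.2, 8.43 and 11.3 and was not called. Ddit3, which encodes CHOP, read 13.3 and 10.2 CPM in untreated WT against 11.7, 12.6 and 6.37, and Atf3 read 19.6 and 19.2 against 37.8, 16.6 and 17.3. Both overlapped, and neither was called in any genotype. In KO, Atf3 read 15.8 and 23.2 CPM untreated and 58.6, 43.6 and 37.4 under DSS, a log2 change of 1.25 ± 0.49 that missed the threshold (edgeR, adjusted p = 0.12) and passed it without VAA DSS replicate 3 (edgeR, adjusted p = 0.025).

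**Figure D3:**
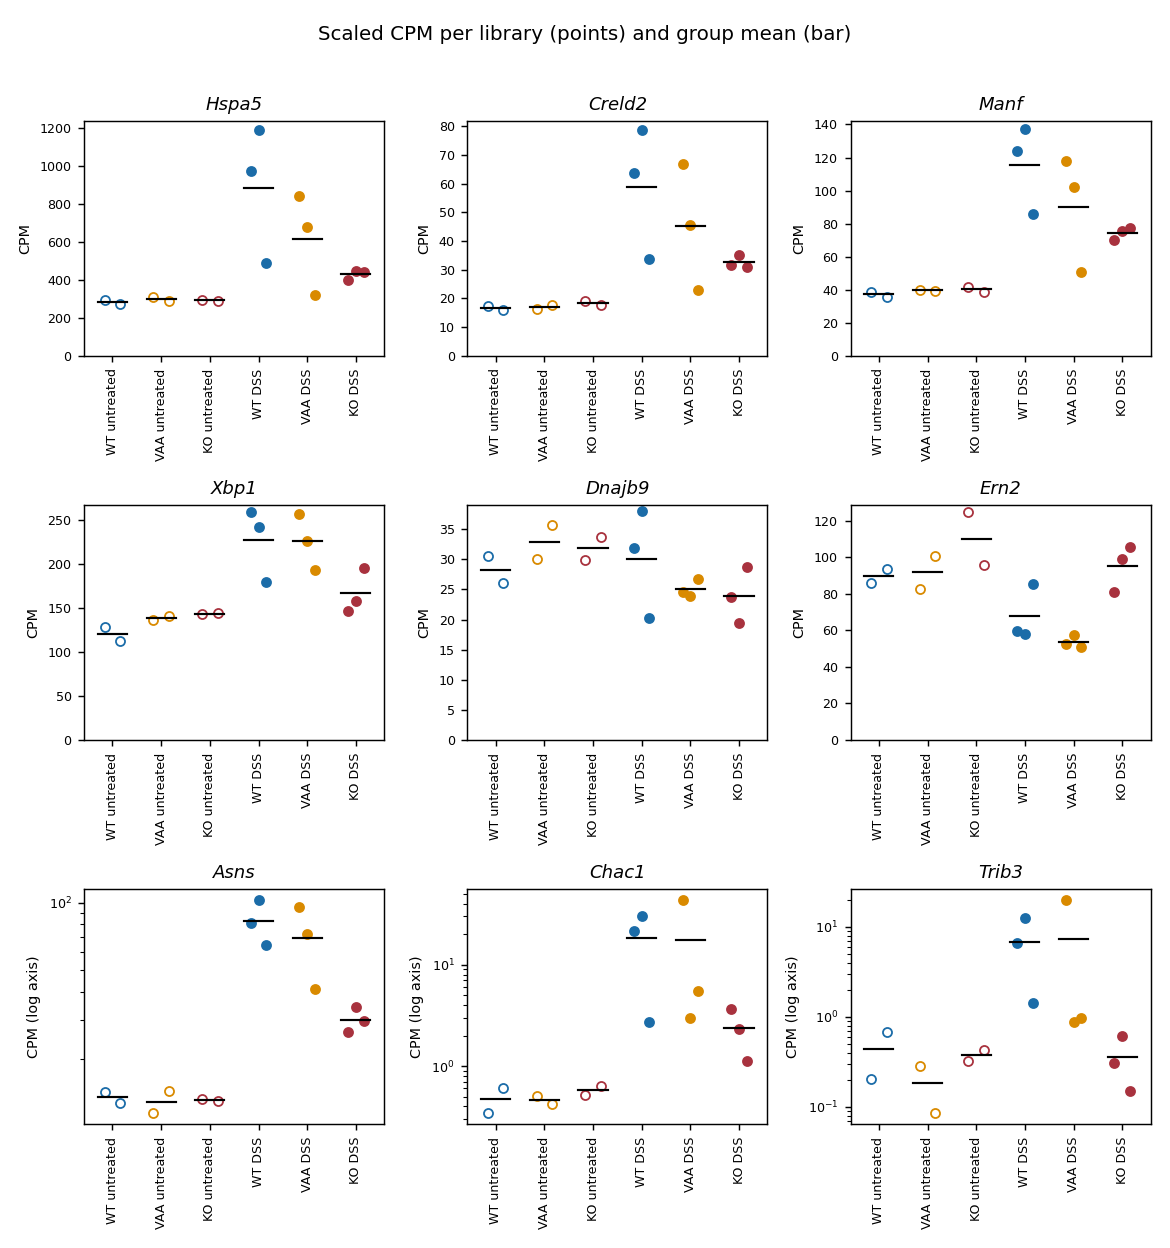
Scaled CPM of 9 members in each library, with untreated libraries as open points, DSS libraries as filled points and the group mean as a bar; Asns, Chac1 and Trib3 are on a log axis. Hspa5, Creld2 and Manf are spread widely in WT and VAA under DSS and narrowly in KO, and 1 VAA DSS library holds Trib3 at 20 CPM while the other two lie near 1.

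In all, 12 of the 37 members share exon bases with another annotated gene, and the sources used here do not state the strand setting of the counting. For Ddit3 (Mars and Gm4189), Ppp1r15a (Tulp2), Pdia3 (Catsper2), Syvn1 (Mrpl49), Derl2 (Mis12) and Pdia6 (Atp6v1c2) the partner is antisense. Manf and Hsp90b1 share bases with genes on both strands, among them Rbm15b and Gm15344 on their own. Counts of these genes are uncertain to that extent. Hspa5, Creld2, Calr, Xbp1, Atf4, Trib3, Chac1 and Asns share none.

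In VAA colon, 16 members rose and 1, Ern2, fell under DSS, against 20.4% of all genes tested that were called, 10.9% that rose and 9.54% that fell. For 19 members the unadjusted p was under 0.05, against 32.8% of all genes. The median log2 change was 0.52 over the members and 0.06 over all genes. By role, 6 of 12 ATF6 targets, 4 of 10 XBP1 targets, 4 of 7 PERK branch genes, P4hb and Xbp1 rose. VAA DSS replicate 3 had the lowest value of its group for Hspa5, Creld2, Manf, Asns and Xbp1. Without it, 24 members rose and 1 fell, while 15.5% of all genes rose, and Hspa5 was then called at 1.33 ± 0.28 on the log2 scale. The VAA count fell to 4 without VAA untreated replicate 1, to 5 without VAA untreated replicate 2 to 10 without VAA DSS replicate 1 and to 3 when only the 2 groups compared were fitted. Asns and P4hb were the calls that held in all 24 alternatives.

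KO colon showed the fewest calls. DSS raised 4 of 37 members, Calr, Sec61b, Asns and P4hb, and lowered 0, against 10.7% of all genes tested that were called, 5.59% that rose and 5.06% that fell. Unadjusted p-values under 0.05 were found for 13 members, against 26.6% of all genes. The median log2 change was 0.45 over the members and 0 over all genes, and 31 of 37 changes were positive. Every KO DSS library lay above every untreated KO library for 24 members, against 24.1% of all genes; the corresponding counts were 27 in WT (31.9%) and 18 in VAA (21%). Without VAA DSS replicate 3, 15 members rose in KO against 10.8% of all genes. That library is of another group and enters through the shared estimate of the spread, the expression filter and the scaling. The KO count was 0 without KO untreated replicate 1, and 2 without KO untreated replicate 2, KO DSS replicate 2 or both male libraries. It was 8 by DESeq2, against 14.3% of all genes, and 17 when only the 2 groups compared were fitted.

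**Figure D4:**
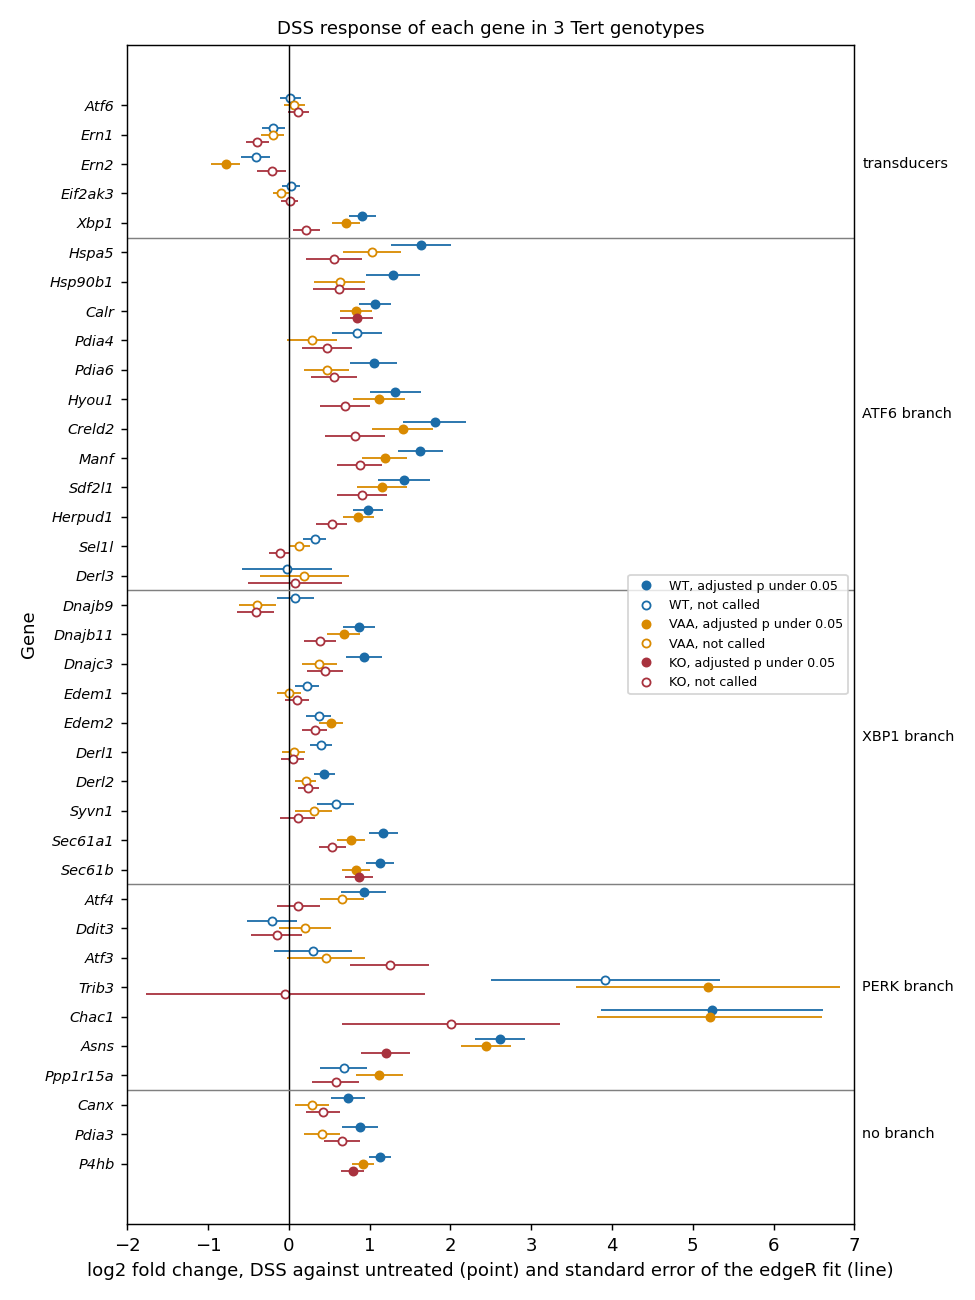
Log2 fold change of DSS against untreated for each member in WT, VAA and KO, with the standard error of the edgeR fit; filled points passed an adjusted p of 0.05. Points of the chaperones lie in the order WT, VAA, KO for many genes with overlapping errors, and Chac1 and Trib3 have errors of over 1.

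Averaged over the genotypes, DSS raised 25 members and lowered 2 (Ern1 and Ern2), against 22.5% and 20% of all genes tested, 42.6% in all. At an unadjusted p under 0.05 there were 29 members, against 50.2% of all genes. They were 10 of 12 ATF6 targets, 6 of 10 XBP1 targets, 5 of 7 PERK branch genes, the 3 folding genes and Xbp1 among those that rose. The 10 not called were Atf6, Eif2ak3, Sel1l, Derl3, Dnajb9, Edem1, Derl1, Syvn1, Ddit3 and Atf3. Pdia4 was called here at 0.53 ± 0.18 on the log2 scale (edgeR, adjusted p = 0.027), and that call was lost in 9 of 23 alternatives, among them limma, sex as a covariate and the omission of single libraries of all 3 genotypes. Of the 27 calls, 23 held in all 23 alternatives.

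The genotypes were then compared under DSS. Between KO and WT, Asns was the only member called: it was lower in KO by 1.46 ± 0.25 on the log2 scale (edgeR, adjusted p = 0.0085), and 0 were higher, against 5.67% of all genes tested that were called, 2.46% lower and 3.21% higher. At an unadjusted p under 0.05 there were 14 members, against 21.9% of all genes. This call was lost without WT DSS replicate 2 (range of the adjusted p over the alternatives 3.3e-06 to 0.053). The KO value was the lower one for 31 of 37 members, and for 8979 of all 17477 genes. Every KO DSS library lay below every WT DSS library for 14 members, against 19.5% of all genes, and above for 1, Atf6, against 16.4%. The 14 were Hspa5, Manf and Herpud1; Dnajb11, Dnajc3, Derl1, Derl2, Sec61a1 and Sec61b; Atf4, Trib3 and Asns; and Canx and P4hb.

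Chaperone differences between KO and WT were sizeable in single genes but widely spread. Hspa5 read 398, 449 and 444 CPM in KO under DSS against 972, 1190 and 490 in WT, with no overlap. The fitted difference was -1.04 ± 0.31 and was not called (edgeR, adjusted p = 0.071). Trib3 differed by -4.19 ± 1.24 (edgeR, adjusted p = 0.066) and Chac1 by -2.95 ± 0.96 (edgeR, adjusted p = 0.09). Medians by role were 0.11 for the sensors and Xbp1, -0.49 for ATF6 targets, -0.26 for XBP1 targets, -0.63 for the PERK branch and -0.21 for the folding genes without a branch.

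The count for KO against WT depended on libraries and settings. Without VAA DSS replicate 3, which is in neither group, 11 members were lower: Xbp1, Hspa5, Hsp90b1, Pdia6, Creld2, Manf, Dnajc3, Sec61a1, Trib3, Chac1 and Asns, against 8.7% of all genes that were lower. Without WT DSS replicate 3, 6 were lower and 1 higher. Without VAA DSS replicate 1 or replicate 2, 3 were lower, and without WT DSS replicate 2 there were 0. DESeq2 called 4 members, against 10% of all genes, and limma 5, against 7.02%. When only the 2 groups compared were fitted, edgeR called 8. Goblet marker sums were higher in KO than in WT under DSS (12600 to 15300 against 5950 to 8460 CPM), and neutrophil marker sums lower (124 to 165 against 374 to 461). Without DSS, goblet sums were also higher in KO (20600 to 20700 against 13100 to 14300 CPM). Neutrophil sums then overlapped (79.9 to 120 against 93.7 to 114). The part of these markers in the member differences under DSS was not tested.

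Between VAA and WT under DSS no member was called by edgeR, DESeq2 or limma, with 1 at an unadjusted p under 0.05 by each tool; 0.00572% of all genes were called by edgeR and 16.3% had such an unadjusted p. A missed threshold does not show that the genotypes were alike, and the standard errors reached 0.85 for Chac1 and 0.95 for Trib3. Hspa5 differed by -0.53, Creld2 by -0.37 and Asns by -0.25 on the log2 scale. Between KO and VAA, 1 member was higher in KO and 3 were lower, against 6.01% and 9.41% of all genes tested, 15.4% in all. Unadjusted p-values under 0.05 were found for 8 members, against 28.2% of all genes. Ern2 was higher in KO (81.1, 99.3 and 106 CPM against 52.4, 57.6 and 50.9; log2 0.83 ± 0.16; edgeR, adjusted p = 0.0062) and stayed called in all 24 alternatives.

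In the fit of all 15 libraries the 3 lower members were all of the PERK branch. Asns read 26.5, 34.2 and 29.6 CPM in KO against 95.8, 72.6 and 41.2 in VAA (log2 -1.22 ± 0.25; edgeR, adjusted p = 0.0075). Ppp1r15a read 13.1, 10.6 and 10.8 CPM against 15.5, 21.3 and 29 (log2 -0.93 ± 0.25; edgeR, adjusted p = 0.025), and its call was lost without VAA DSS replicate 3, KO DSS replicate 2 or KO DSS replicate 3. Trib3 differed by -4.31 ± 1.24 (edgeR, adjusted p = 0.033) and by -1.31 without VAA DSS replicate 1 (edgeR, adjusted p = 0.4, with a range of 0.0041 to 0.4 over the alternatives). Every KO DSS library lay below every VAA DSS library for these genes and Herpud1, 4 of 37 members, against 14.6% of all genes. Every one lay above for 2, Ern2 and Eif2ak3, against 13.8%. The count of members called was 7 without VAA DSS replicate 2 and 2 without KO DSS replicate 2. Without VAA DSS replicate 3, 5 members were lower and 1 higher, against 6.6% and 5.01% of all genes. Xbp1 (log2 -0.53) and Manf (log2 -0.56), of other roles, were then among the lower ones.

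**Figure D5:**
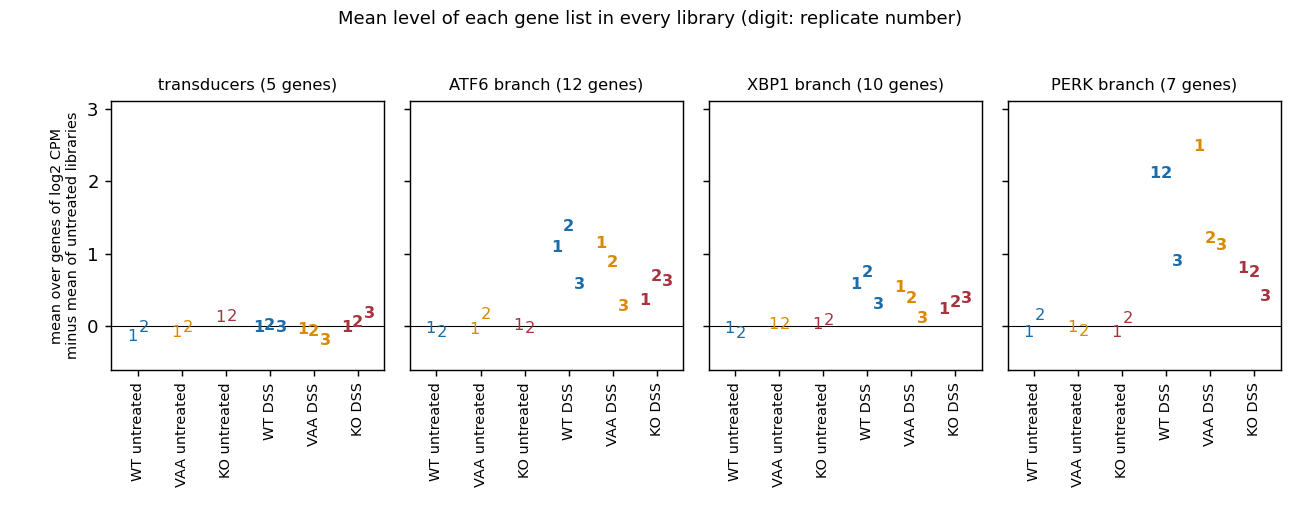
Mean over the genes of a role of log2 CPM minus the mean of the 6 untreated libraries, for each library (digits are replicate numbers). ATF6 target means are 0.58 to 1.38 in WT DSS, 0.27 to 1.14 in VAA DSS and 0.36 to 0.68 in KO DSS; PERK branch means are 0.9 to 2.1, 1.11 to 2.48 and 0.41 to 0.79.

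Whether DSS acted differently by genotype was tested as an interaction. No member was called for KO against WT by edgeR, DESeq2 or limma. At an unadjusted p under 0.05, 5 members passed by edgeR (Asns, Xbp1, Sec61a1, Sel1l and Hspa5) and 8 each by DESeq2 and limma, against 9.93% of all genes by edgeR. The Asns interaction was -1.41 on the log2 scale (edgeR, adjusted p = 0.29) and that of Xbp1 -0.69 (edgeR, adjusted p = 0.37). The effects of DSS in WT and KO are therefore not shown to differ for any single member. For VAA against WT, 0 members passed an unadjusted p under 0.05 by any of the 3 tools, against 7.2% of all genes by edgeR.

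Without DSS, no member was called between genotypes. For KO against WT, VAA against WT and KO against VAA, 0 members were called and 0 had an unadjusted p under 0.05 by edgeR, DESeq2 or limma. Among all genes, 2.01%, 1.33% and 2.29% had such an unadjusted p by edgeR, and 0% were called by edgeR. Hspa5 read 295 and 273 CPM in WT, 312 and 290 in VAA and 296 and 290 in KO. Creld2 lay at 16.1 to 19.1 CPM in all 6 untreated libraries.

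The mean level of each role followed the same libraries. Among WT DSS libraries the ATF6 targets averaged 1.09, 1.38 and 0.58 above the untreated mean on the log2 scale, the XBP1 targets 0.57, 0.74 and 0.3, and the PERK branch 2.1, 2.1 and 0.9. In each role replicate 3 was the lowest. For VAA the values were 1.14, 0.88 and 0.27 for ATF6 targets, 0.53, 0.38 and 0.11 for XBP1 targets and 2.48, 1.21 and 1.11 for the PERK branch, with replicate 1 the highest in each. For KO they were 0.36, 0.68 and 0.62, then 0.23, 0.33 and 0.38, then 0.79, 0.74 and 0.41. The ATF6 and XBP1 means of the KO libraries overlap those of WT DSS replicate 3 and of VAA, while all 3 PERK branch means of KO lie below all 6 of the other genotypes. Single genes of that branch did not all follow. Every KO DSS library lay below every WT DSS library for 3 of 7 (Atf4, Trib3 and Asns), against 19.5% of all genes. The count against VAA was also 3 of 7 (Trib3, Asns and Ppp1r15a), against 14.6%. Atf3 had its highest mean in KO, 46.5 CPM against 23.9 in WT and 30.1 in VAA under DSS.

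The promoter elements were set beside the DSS response. Of the 9 members with ERSE, 7 rose in WT, and of the 22 with a promoter but no ERSE, 11 rose. In VAA the counts were 2 of 9 and 11 of 22, and without VAA DSS replicate 3 they were 7 of 9 and 14 of 22. In KO they were 1 of 9 and 3 of 22, and without that replicate 6 of 9 and 7 of 22. Derl3 and Syvn1 hold ERSE and were not called. Of 9 tested genes that hold ERSE and are no members, 1 rose in WT (11.1%), against 15.5% of all genes with a promoter. For CARE, 3 of 5 members with the element rose in WT and 4 of 5 in VAA. Of the 26 members with a promoter but no CARE, 15 and 9 rose, and in VAA without that replicate 17 rose. The shares in WT and VAA were 19% and 15.6% for other genes with the element. In KO, 1 of 5 members with CARE and 3 of 26 without it rose. Without VAA DSS replicate 3 these KO counts were 3 and 10. These shares describe the genes and were not tested.

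Other genes of the response, from 3 lists of pathway genes that are no members, mostly moved upward in WT. These lists were chosen with earlier results of these data known, so they are no independent test. The list of luminal folding also holds transcription factors, among them Creb3l3 and Bhlha15, and proteases of the response. Of its 28 tested genes, 16 rose and 0 fell in WT, 8 rose in VAA and 3 in KO. Of all genes 14.1%, 10.9% and 5.59% rose. The counts were 18, 11 and 9 without VAA DSS replicate 3. Fkbp11, an ER prolyl isomerase, rose from 1.3 and 1.55 CPM to between 8.24 and 10.4 in WT (log2 2.66 ± 0.38). Dnajc10, a reductase that aids degradation, rose by 1.5 ± 0.19 in WT, 1.09 ± 0.19 in VAA and 0.98 ± 0.19 in KO. Bhlha15, the secretory cell factor MIST1, rose by 1.9 ± 0.3 in WT and 1.47 ± 0.3 in VAA. Creb3l3, an ER membrane factor processed like ATF6, rose in all 3 (2.22 ± 0.37, 2.88 ± 0.39 and 1.94 ± 0.37). Fkbp11 and Bhlha15 were lower in KO than in WT under DSS, by 1.18 ± 0.3 and 0.92 ± 0.25 on the log2 scale (edgeR, adjusted p = 0.04 and 0.049). They were the 2 called of 28, against 2.46% of all genes that were lower. In the other direction, the disulfide isomerases Txndc5 and Pdia5 were higher in KO than in VAA, each by 0.64 (edgeR, adjusted p = 0.022 and 0.034), 2 of 28 against 6.01% of all genes that were higher. Neither was called there by edgeR without VAA DSS replicate 3, when 0 of 28 were higher and 1 was lower.

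Of 29 tested genes of translocation and degradation, 19 rose and 0 fell in WT, 10 rose in VAA and 3 in KO, beside the same shares of all genes. They were 21, 17 and 10 without VAA DSS replicate 3. Serp1, which stabilises the translocon, rose by 1.51 ± 0.19, 1.27 ± 0.19 and 0.84 ± 0.19 in the order WT, VAA, KO. Ssr3, of the translocon-associated complex, rose by 1.12 ± 0.16, 0.72 ± 0.15 and 0.6 ± 0.15. Vcp, the ATPase that extracts proteins for degradation, rose by 0.95 ± 0.16 in WT and 0.74 ± 0.15 in VAA. Sec24d, of the vesicle coat that leaves the ER, and Srprb, of the signal recognition receptor, were lower in KO than in WT under DSS by 0.48 ± 0.12 and 0.65 ± 0.17 (edgeR, adjusted p = 0.042 and 0.043), 2 of 29 against 2.46% of all genes. Tram2, of the translocon, was lower in KO than in VAA by 1.07 ± 0.23, 1 of 29 against 9.41% of all genes.

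Of 31 tested genes of the integrated stress response, the wider programme that runs through eIF2alpha and ATF4, 18 rose and 0 fell in WT, 18 rose in VAA and 1, Psat1, rose in KO, beside 14.1%, 10.9% and 5.59% of all genes. Leaving out VAA DSS replicate 3 gave 19, 21 and 9. Psat1, of serine synthesis, rose from 5.12 and 6.73 CPM to between 33.1 and 67.6 in WT (log2 3.05 ± 0.52). The amino acid transporters Slc7a11 and Slc7a5 rose by 1.73 ± 0.21 and 2.91 ± 0.45 in WT and by 1.97 ± 0.22 and 3.15 ± 0.46 in VAA. Under DSS, 6 of the 31 were lower in KO than in WT and 7 lower than in VAA, against 2.46% and 9.41% of all genes. Leaving it out also gave 17 and 18 lower in KO, against 8.7% and 6.6% of all genes. Slc7a11 read 31.7 to 37.9 CPM in KO, 84.9 to 109 in WT and 81.1 to 120 in VAA, with no overlap between KO and either other genotype (log2 -1.44 ± 0.18 and -1.45 ± 0.18; edgeR, adjusted p = 0.0019 and 0.00077). Eif4ebp1, a translation repressor, Slc7a5 and Cebpb were lower in both comparisons as well.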

How the data were processed

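Total RNA libraries of 15 colon samples were read as 76-base pairs, per the labels. Estimated counts by gene symbol were deposited by the authors. The submitters' processing notes name kallisto 0.46 and mm10. Annotation and strand setting are unstated in the sources used here. The estimated counts were whole, so rounding changed 0 values. The authors also deposited log2 CPM, which differ by at most 0.0182 from values recomputed from the counts with a prior count of 2. The members and lists were chosen with earlier results of these data known.

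Genes kept by edgeR's expression filter (17477) were fitted in R 4.3.3 with edgeR 4.0.16: trimmed mean of M values scaling, 1 mean per group over 15 libraries, quasi-likelihood test with 9 residual degrees of freedom, Benjamini-Hochberg adjustment over all genes tested, called under 0.05. The SE is the fold change divided by the square root of F. Scaling and tools (DESeq2 1.42.0, limma 3.58.1), the filter, covariates and each library left out in turn were varied over 24 alternatives; leaving out both male libraries was chosen after seeing the data. No block was used. The chi-square per degree of freedom between replicates was 10.7 or more. The scripts were tested on simulated data. All members could be named, with library values for up to 4 per role and comparison by smallest p, called or not; pathway genes were named from up to 4 called per list and comparison by smallest p. Gene positions are GENCODE vM21 on GRCm38, the mm10 build; promoters are RefSeq on GRCm38.p6, and printed windows that touch an annotated exon are at most 30 bases.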

Additional observations from a re-analysis of the deposited data

How the results depend on the processing

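Counts of called members kept within 1.5 times of the values reported for the averaged DSS effect, VAA against WT under DSS, the untreated pairs and both interactions in all alternatives run, and no member's change turned its sign while called. DSS in WT (21 members) gave 6 without both male libraries. DSS in VAA (17) gave 3 when only the groups compared were fitted. DSS in KO (4) gave 8 with the DESeq2 test, beside 14.3% of all genes called. It gave 17 when only the groups compared were fitted and 2 without both male libraries. KO against WT under DSS (1) gave 3 with no expression filter, 4 with the DESeq2 test and 5 with limma on the deposited log2 values. DESeq2 called 10% of all genes there and limma 7.02%. The count was 8 when only the groups compared were fitted. KO against VAA under DSS (4) gave 1 when only the groups compared were fitted. The causes were not tested.

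The labels do not say that replicate numbers pair the libraries. Over 33 pairs with equal numbers the correlation of deviations ran from -0.16 to 0.31, with 8 over 0.1, and 7 of 15 libraries correlated best with their own number, so they were not treated as paired. With the replicate number as a replicate block, DSS in KO gave 12 members and KO against WT under DSS 3; DSS in WT gave 25, DSS in VAA 19 and KO against VAA 5, and the VAA against WT, untreated and interaction counts stayed at 0. Leaving out each library in turn gave 9 to 26 members for DSS in WT, 4 to 25 in VAA, 0 to 15 in KO, 25 to 30 averaged, 0 to 11 for KO against WT and 2 to 7 for KO against VAA under DSS, and 0 to 0 elsewhere; where an untreated group was left with 1 library, that library was assumed to vary like the other groups. Another scaling moved the median of all genes by at most 0.096 on the log2 scale. A fit of only the groups compared was not run for the averaged effect, which uses all groups. With 2 untreated libraries a genotype and log2 errors of over 1, differences in Chac1 and Trib3 were hard to detect at this depth.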
